A study of Mus musculus with 67 samples.

Results

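The 2 mammalian cryptochrome genes, Cry1 and Cry2, were followed through the day in mouse liver. They were taken by symbol from a deposited table of 45808 gene rows, each of which they occupy once, and both passed the minimum mean of 1 FPKM (fragments scaled to exon length and to library size), which left 9958 genes to test. Liver mRNA of C57BL/6 mice, 24 weeks old and fed a high-fat diet for 12 weeks, was sequenced in 67 libraries at zeitgeber times (ZT, hours from lights on by convention). Food was given ad libitum (AL) or for a restricted part of the day (time-restricted feeding, TRF), and the labels do not give those hours. Mice were wild type (WT), Bmal1-liverKO (Bmal1LKO here), the Cry1Cry2 double knockout (CryDKO) and the liver double knockout of Rev-erb alpha and beta (ReverbLDKO). WT had 12 AL and 11 TRF libraries at ZT4, 8, 12, 16, 20 and 24, with 1 TRF library at ZT12 and otherwise 2 at each time. Bmal1LKO had 6 libraries at each feeding, 1 at each of those times, and CryDKO and ReverbLDKO had 8 at each feeding, 1 every 3 h from ZT3 to ZT24. The labels name neither the promoter of the Cre used for the liver knockouts nor the exons removed. Nor do they say whether each library is its own mouse, and p-values therefore reflect spread among libraries that may be technical.

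Cryptochromes are the main transcriptional repressors of the circadian clock. The activators BMAL1 (gene symbol Arntl) and CLOCK, or its relative NPAS2, bind E-boxes and switch on the Per and Cry genes, and the PER and CRY proteins return to the nucleus and shut the activators off until they are degraded. Cry1 is also regulated through ROR response elements, where ROR proteins activate and REV-ERB proteins (Nr1d1, Nr1d2) repress, an input known to delay its daily peak. In liver, cryptochromes also restrain glucagon signalling and glucocorticoid receptor activity.

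On GRCm38, Cry1 (ENSMUSG00000020038.10) lies on the minus strand of chromosome 10, from 85131700 to 85185064, with 3340 bases of exon. Cry2 (ENSMUSG00000068742.11) lies on the minus strand of chromosome 2, from 92403646 to 92434043, with 6320 bases of exon. An antisense gene, D930015M05Rik, shares 295 exon bases with Cry2, but its own value reached at most 0.11 FPKM in any library. The promoter stretches below show where the E-box letters stand in each gene, and no binding was measured. They run from 180 to 11 bases before the RefSeq start (GRCm38.p6, minus strand, chr10:85185065-85185234 for Cry1 and chr2:92434080-92434249 for Cry2), with capitals marking the E-box letters CACGTG and the variant CACGTT, which is read here from the other strand as AACGTG.

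Cry1 promoter: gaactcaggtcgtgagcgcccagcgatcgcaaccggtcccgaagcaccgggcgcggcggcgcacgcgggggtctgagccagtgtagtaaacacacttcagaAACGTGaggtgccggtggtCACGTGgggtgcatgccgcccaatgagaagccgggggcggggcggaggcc

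Cry2 promoter: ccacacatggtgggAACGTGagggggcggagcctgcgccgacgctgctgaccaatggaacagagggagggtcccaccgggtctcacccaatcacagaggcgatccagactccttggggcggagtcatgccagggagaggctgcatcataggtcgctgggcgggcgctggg

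Counted from the start, the E-box of Cry1 began at -60 and the variant at -79. Cry2 held only the variant, at -166. Over windows of 250 bases before to 50 after the start, 7.15% of 32851 RefSeq promoters held CACGTG on either strand and 4.68% held CACGTT. The D-box letters TTATGTAA (0.938% of promoters) and the ROR half-site AGGTCA (16.3%) were in neither cryptochrome window, which says only that those letters do not stand in these windows. Among 14 other clock genes with a window, 4 held CACGTG (Bhlhe41, Ciart, Per1 and Tef). A match of letters is a description and not a binding site.

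Libraries differed in ways that touch the members. The depth that makes low FPKM values whole reads was 5.38 to 35.05 M reads, and at these depths Cry1 had about 60 to 2001 reads in a library and Cry2 about 46 to 1100. The shallowest library, WT AL ZT16 replicate 2, was also the one with about 46 Cry2 reads. GC content was taken from the longest annotated transcript of each gene. The slope of log2 expression against it, relative to the mean over libraries, was 0.028 to 0.507 per 10 percentage points in WT AL. It was -1.05 to 0.141 in WT TRF and between -0.202 and 0.196 in the mutants. Cry2 (55.6% GC) is richer in GC than Cry1 (51.6%). Values corrected for GC content and exon length within each library are given beside results on the members whose call they change, and beside some others. Results without a corrected value may still move with the correction. The part of GC bias in any of these results was not tested. The 9 hepatocyte markers were all expressed, with a summed level of 30900 to 89900 FPKM. Summed immune markers were at 68.4 to 286 FPKM and endothelial markers at no more than 35.9 FPKM, stellate cell markers at 45.1 to 287 FPKM, bile duct markers at 20.2 to 340 FPKM and erythroid markers at 118 to 2930 FPKM, while pancreas markers ranged from 16.4 to 2390 FPKM and adipocyte markers from 0 to 45.5 FPKM. Of the bile duct markers 1 of 4 had a mean of at least 1 FPKM, and of the adipocyte markers 1 of 3. Adipocyte markers were highest in WT AL (median 14.9 FPKM, against at most 1.16 in any other group), and their part in the WT values was not tested. In bulk liver, fewer cells of a type and less RNA per cell cannot be told apart.

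Cry1 was strongly rhythmic in WT liver under both feedings, low in the light phase and high in the dark phase. With AL food the 2 libraries of each time gave 3.66 and 3.21 FPKM at ZT4, 2.92 and 1.75 at ZT8, and 6.77 and 8.64 at ZT12. They then gave 18.1 and 15.3 FPKM at ZT16, 14.8 and 18.8 at ZT20, and 15.4 and 10.8 at ZT24. The ZT16, ZT20 and ZT24 libraries all lay above every library of ZT4, ZT8 and ZT12. With TRF the values were 3.70 and 3.81 FPKM at ZT4, 1.66 and 2.46 at ZT8, 6.62 in the 1 library of ZT12, and 17.5 and 15.9 at ZT16. They were 19.1 and 23.01 FPKM at ZT20 and 13.0 and 10.6 at ZT24, so the same split between early and late times held. In limma, with a cosine and a sine of 24 h for each group on log2(FPKM + 1) and Benjamini-Hochberg adjustment over all tested genes, Cry1 peaked at ZT18.9 ± 0.300 h (SE) in AL. Its amplitude was 1.31 ± 0.10 on the log2 scale, a 6.16-fold span from trough to peak (adjusted p = 1.60e-12, n = 12), where 29.7% of tested genes were called rhythmic. In TRF the peak stood at ZT19.2 ± 0.299 h with an amplitude of 1.44 ± 0.10, a 7.37-fold span (limma adjusted p = 2.82e-13, n = 11), where 20% of tested genes were called.

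Cry2 moved less and earlier. In WT AL it read 2.39 and 1.99 FPKM at ZT4, 5.67 and 5.84 at ZT8, and 8.01 and 6.79 at ZT12. It then read 4.79 and 1.35 FPKM at ZT16, 3.87 and 3.30 at ZT20, and 2.65 and 2.99 at ZT24. The ZT12 libraries were the highest, and the 2 libraries of ZT16 differed by more than those of any other time. The fitted peak was at ZT11.3 ± 0.977 h with an amplitude of 0.52 ± 0.13 (2.05-fold span, limma adjusted p = 0.0127, n = 12). That call was lost without WT AL ZT12 replicate 1 (adjusted p = 0.0611) and when only this group entered the limma fit (adjusted p = 0.248).

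In WT TRF, Cry2 read 2.05 and 1.23 FPKM at ZT4, 4.09 and 4.05 at ZT8, 3.23 at ZT12 and 4.35 and 1.79 at ZT16. It read 4.24 and 2.86 FPKM at ZT20 and 2.84 and 2.29 at ZT24. No rhythm passed the test there (amplitude 0.25 ± 0.14, limma adjusted p = 0.366, n = 11). At ZT16 the low library was replicate 2 in both feedings, and these libraries had GC slopes of 0.0283 (AL) and -1.05 (TRF), against 0.302 and -0.245 in replicate 1. This was not limited to ZT16. In WT TRF every replicate 2 library had a lower GC slope (-1.05 to -0.516) than every replicate 1 library (-0.393 to 0.141). Cry2 was also lower in replicate 2 at each TRF time with both. The 1 TRF library of ZT12 was replicate 2, and all mutant libraries were labelled replicate 1. With GC and length correction the TRF amplitude became 0.45 ± 0.10 with a peak at ZT14.8 ± 0.809 h (limma adjusted p = 0.00295), and without both ZT16 replicate 2 libraries it was 0.43 (limma adjusted p = 0.0166). The AL peak moved to ZT13.1 ± 0.720 h with the same correction. Over the 12 WT means of feeding and time, centred within feeding, the profiles of Cry1 and Cry2 had a Pearson r of -0.144 and a Spearman rho of -0.098, over means that share their libraries.

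**Figure D1:**
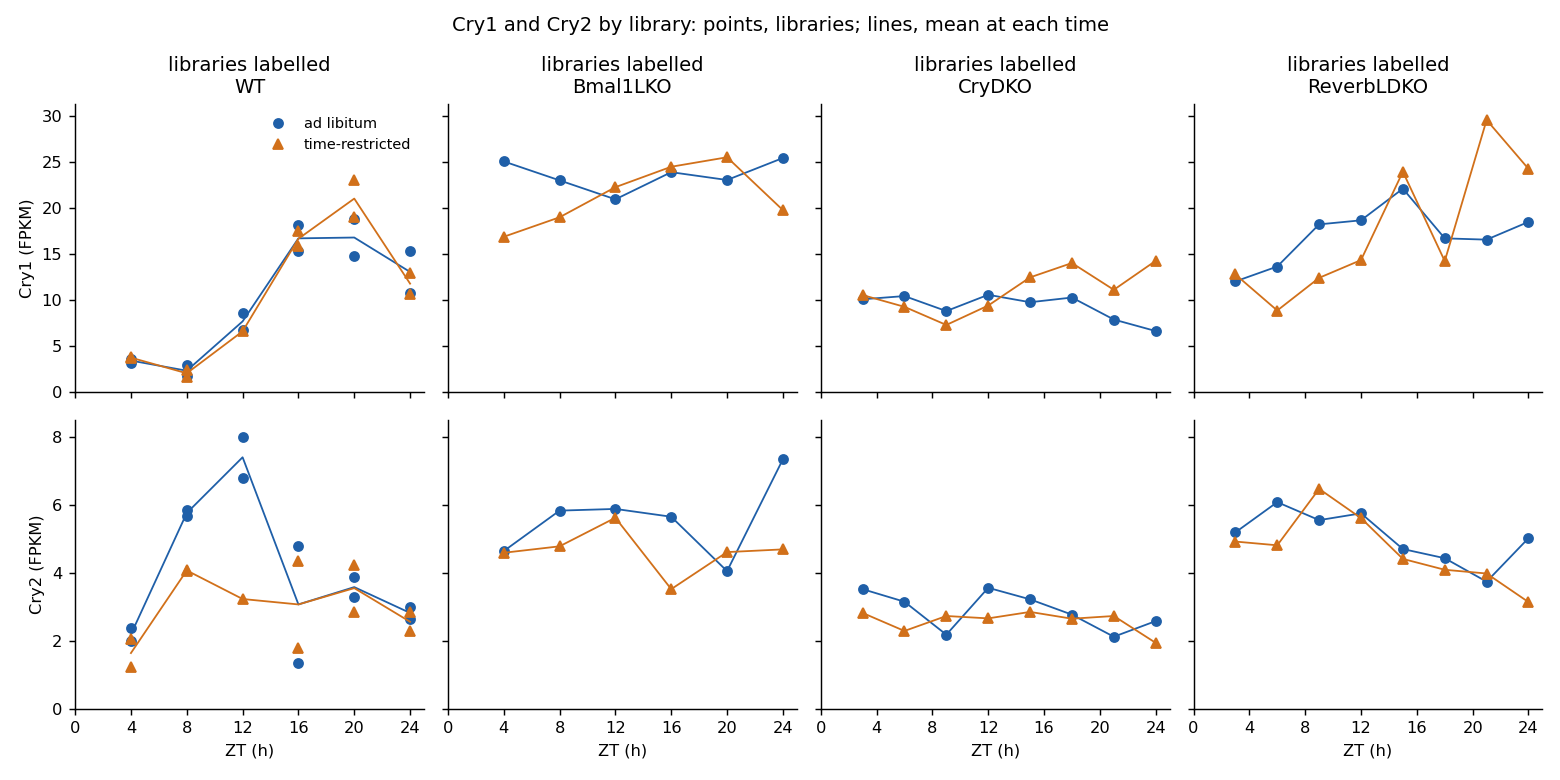
Cry1 (upper row) and Cry2 (lower row) in FPKM against ZT in hours, with 1 panel per genotype; points are libraries, lines join the mean at each time, blue circles are AL and orange triangles TRF. WT Cry1 climbs from 1.66 FPKM at its lowest to 23.01 at its highest, while the 6 Bmal1LKO AL libraries stay between 20.96 and 25.5 FPKM and the CryDKO AL libraries between 6.65 and 10.6 FPKM.

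Feeding moved neither gene past the test in any genotype. The level of Cry1 over 24 h, TRF minus AL, differed by -0.02 in WT on the log2 scale (95% interval -0.23 to 0.19, limma adjusted p = 0.882), and TRF was the higher at 2 of 6 times. In Bmal1LKO it differed by -0.15 (-0.44 to 0.14), in CryDKO by 0.21 (-0.04 to 0.46) and in ReverbLDKO by -0.04 (-0.29 to 0.22), with limma adjusted p of 0.643, 0.991 and 0.919. The share of tested genes called for a feeding difference in level was 64.1% in WT, 0.0402% in Bmal1LKO, 0.0201% in CryDKO and 3.34% in ReverbLDKO. Cry1 thus did not pass in WT, where most genes did without GC and length correction (6379 of 9958). With that correction 3762 genes were called in WT, which is no longer most of them. Cry1 did not pass there either (0.05, limma adjusted p = 0.752).

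Cry2 was 0.28 lower under TRF in WT (95% interval -0.56 to -0.01, limma adjusted p = 0.0659), with a lower mean at 5 of 6 times and a higher one at 0. The sign turned with GC and length correction, to 0.20 higher (limma adjusted p = 0.0769), beside the GC slopes that were lower in WT TRF than in WT AL. Leaving out 1 library gave -0.41 to -0.18, and the difference passed the test in 7 of 23 such fits. Those libraries were AL ZT4 replicates 1 and 2, AL ZT16 replicate 2, TRF ZT8 replicates 1 and 2, TRF ZT16 replicate 1 and TRF ZT20 replicate 1. In the mutants the Cry2 difference was -0.21 in Bmal1LKO (95% interval -0.59 to 0.17), -0.11 in CryDKO (-0.43 to 0.22) and -0.10 in ReverbLDKO (-0.43 to 0.22), with limma adjusted p of 0.621, 1 and 0.811. With GC and length correction the fitted log2 levels of Cry2 lay closer in 2 mutants. They were 2.694 (AL) and 2.635 (TRF) in Bmal1LKO and 2.450 and 2.426 in ReverbLDKO, beside 1.808 and 1.660 in CryDKO. A test of whether the feeding difference itself varied between genotypes gave limma adjusted p of 0.363 for Cry1 and 0.831 for Cry2, where 47% of genes were called.

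The shape of the day did not differ by feeding past the test either. For Cry1 the limma adjusted p for cosine and sine together was 0.770 in WT, 0.9999 in Bmal1LKO, 0.364 in CryDKO and 1 in ReverbLDKO, and for Cry2 it was at least 0.647 in all 4 genotypes. Such differences were called in 0% of tested genes in WT, 0% in Bmal1LKO, 1.25% in CryDKO and 0% in ReverbLDKO.

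In libraries labelled CryDKO both genes still had reads in every library, so the FPKM over all exons does not check the deletion. Cry1 ran from 6.65 to 10.6 FPKM in AL (median 9.94, n = 8) and from 7.31 to 14.3 FPKM in TRF (median 10.9, n = 8). Cry2 ran from 2.12 to 3.56 FPKM in AL (median 2.96) and from 1.94 to 2.85 FPKM in TRF (median 2.69). All these ranges lay within those of WT, which were 1.75 to 18.8 FPKM for Cry1 and 1.35 to 8.01 FPKM for Cry2 in AL. What fraction of these transcripts could be translated was not measured.

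In Bmal1LKO and ReverbLDKO liver the level of Cry1 over the day was higher than in WT. In Bmal1LKO, Cry1 ran from 20.96 to 25.5 FPKM in AL (median 23.5, n = 6) and from 16.9 to 25.5 FPKM in TRF (median 21.04, n = 6). In AL, the lowest of these libraries lay above the highest WT library, while in TRF the ranges overlapped (highest WT library 23.01 FPKM). The number of tested genes that separate in this way was not counted. Over 24 h the level exceeded WT by 1.44 ± 0.13 in AL, a 2.71-fold difference, and by 1.31 ± 0.13 in TRF, a 2.48-fold difference (limma adjusted p = 1.89e-12 and 3.69e-11). The gap was widest at ZT8, where the AL value of 23.02 FPKM was 9.84 times the WT mean of 2.34 FPKM, and narrowest at ZT20, where 23.1 FPKM was 1.37 times the WT mean. In these comparisons 24.9% (AL) and 39.1% (TRF) of tested genes were called in either direction. Summed hepatocyte markers had a median of 36000 FPKM (AL) and 33800 FPKM (TRF) in Bmal1LKO against 59200 and 57900 FPKM in WT. Pancreas markers had medians of 112 and 109 FPKM there against 55.7 and 52.8 FPKM in WT, and bile duct markers 58.6 and 154 FPKM against 38.3 and 64.6 FPKM. Only 1 of the 4 bile duct markers had a mean of at least 1 FPKM. The part of hepatocyte, pancreas and bile duct markers in the result was not tested.

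In ReverbLDKO, Cry1 ran from 12.0 to 22.1 FPKM in AL (median 17.5, n = 8) and from 8.88 to 29.6 FPKM in TRF (median 14.3, n = 8), above WT by 0.98 ± 0.12 and 0.96 ± 0.12 on the log2 scale. Both passed (limma adjusted p = 5.15e-09 and 9.10e-09), where 44.8% and 52.6% of genes were called. The ranges overlapped with those of WT. The 3 mutants of a feeding were compared with the same WT libraries.

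In libraries labelled CryDKO, the level of Cry1 over 24 h was nearer to WT than in the other mutants. It was 0.18 ± 0.12 above WT in AL (limma adjusted p = 0.185) and 0.41 ± 0.12 above it in TRF (limma adjusted p = 0.00273), where 55.4% and 61.5% of genes were called. The TRF call was lost with no time terms (0.37, limma adjusted p = 0.311), and the AL difference passed with GC and length correction (0.28, limma adjusted p = 0.0394) and with libraries scaled to the same sum (0.42, limma adjusted p = 0.0141).

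Calls of a Cry2 level difference from WT moved with the processing. In Bmal1LKO, Cry2 ran from 4.05 to 7.34 FPKM in AL and from 3.52 to 5.62 in TRF, above WT by 0.45 ± 0.16 and 0.52 ± 0.16 (limma adjusted p = 0.0372 and 0.0105). The AL call was lost in 7 of 18 fits that left out 1 library, and the TRF call was lost with GC and length correction (0.27, limma adjusted p = 0.0556) and without Bmal1LKO TRF ZT12 (0.45, limma adjusted p = 0.0502). The libraries that ended the AL call were WT AL ZT4 replicates 1 and 2, WT AL ZT16 replicate 2, and Bmal1LKO AL ZT8, ZT12, ZT16 and ZT24, with differences of 0.32 to 0.44 without them.

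In ReverbLDKO, Cry2 ran from 3.74 to 6.08 FPKM in AL and from 3.14 to 6.47 in TRF. It was above WT by 0.34 ± 0.15 in AL (limma adjusted p = 0.0582) and by 0.52 ± 0.15 in TRF (limma adjusted p = 0.00421). With GC and length correction the calls changed places, to 0.29 in AL (limma adjusted p = 0.0195) and 0.06 in TRF (limma adjusted p = 0.670). In CryDKO, Cry2 differed from WT by -0.31 ± 0.15 in AL and -0.13 ± 0.15 in TRF (limma adjusted p = 0.0751 and 0.457). With the same correction these became -0.35 (limma adjusted p = 0.00321) and -0.71 (limma adjusted p = 2.91e-07).

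Against the other mutants, comparisons that use no WT library and were added after the levels had been seen, both cryptochromes were lower in CryDKO at both feedings. Both are the targeted genes in CryDKO, and the part of removed exons in these FPKM differences was not tested. Cry1 differed from its Bmal1LKO level by -1.26 ± 0.14 in AL and -0.90 ± 0.14 in TRF on the log2 scale, and from its ReverbLDKO level by -0.80 ± 0.13 and -0.55 ± 0.13. For Cry2 the differences from Bmal1LKO were -0.75 ± 0.17 and -0.65 ± 0.17, and those from ReverbLDKO were -0.64 ± 0.16 and -0.65 ± 0.16. The limma adjusted p of these 8 differences ran from 3.44e-10 to 0.00274. With no time terms the Cry1 differences from ReverbLDKO no longer passed, in AL (limma adjusted p = 0.0948) or in TRF (0.265). With GC and length correction the gap of Cry2 to Bmal1LKO in TRF was wider, with fitted log2 levels of 1.66 in CryDKO and 2.635 in Bmal1LKO. Against Bmal1LKO, 24.5% of tested genes were called in AL and 53% in TRF, and against ReverbLDKO 19.8% and 23.1%. In AL every CryDKO library was below every Bmal1LKO and ReverbLDKO library of that feeding for both genes. In TRF this held for Cry2, and for Cry1 only against Bmal1LKO. How many of all tested genes separate in this way was not counted.

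Placed in order of fitted 24 h level, Cry1 rose from 7.92 FPKM in WT TRF and 8.04 in WT AL through 9.23 in CryDKO AL and 10.8 in CryDKO TRF to 16.4 in ReverbLDKO TRF and 16.8 in ReverbLDKO AL. Bmal1LKO TRF, at 21.1 FPKM, and Bmal1LKO AL, at 23.5 FPKM, were highest. Only the steps from CryDKO TRF to ReverbLDKO TRF and from ReverbLDKO AL to Bmal1LKO TRF exceeded 2 standard errors, so other neighbours did not differ beyond their spread. For Cry2 the order was CryDKO TRF (2.57 FPKM), CryDKO AL (2.85), WT TRF (2.91), WT AL (3.76), then ReverbLDKO TRF and Bmal1LKO TRF (both 4.60), ReverbLDKO AL (5.01) and Bmal1LKO AL (5.48). The 1 step past 2 standard errors lay between WT TRF and WT AL, the step whose sign turned with GC and length correction.

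**Figure D2:**
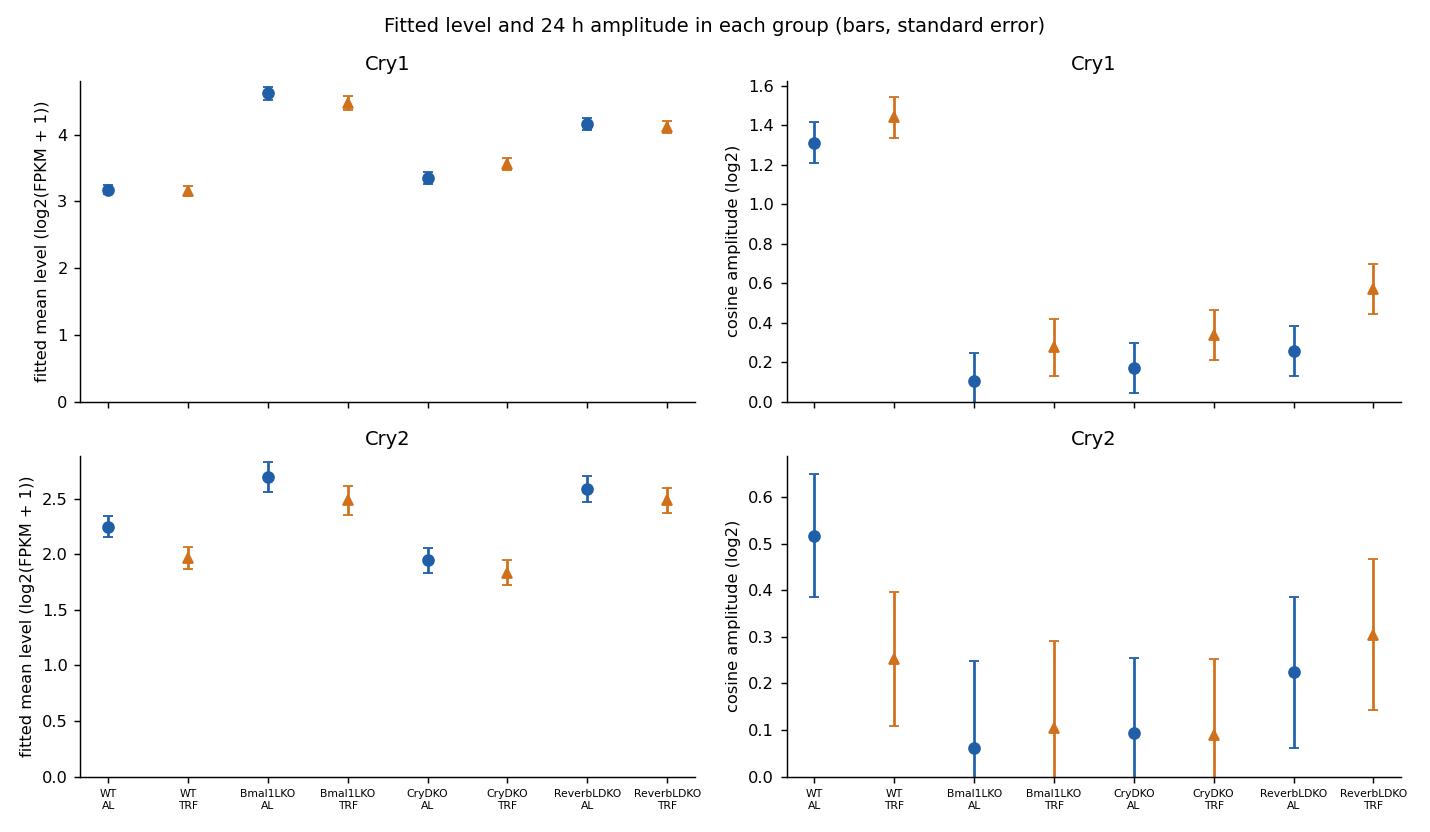
Fitted mean level on the log2(FPKM + 1) scale (left) and cosine amplitude on the log2 scale (right) of Cry1 and Cry2 in the 8 groups, with bars of 1 standard error; circles are AL and triangles TRF. Cry1 is highest in Bmal1LKO, where its amplitude is 0.10 (AL) and 0.27 (TRF), against 1.31 and 1.44 in WT.

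The fitted Cry1 amplitude was smaller than in WT in all 3 mutants. In Bmal1LKO the amplitude was 0.10 ± 0.15 in AL and 0.27 ± 0.15 in TRF, and in CryDKO it was 0.17 ± 0.13 and 0.34 ± 0.13, none of which passed (limma adjusted p = 1, 0.755, 1 and 0.198). The share of tested genes called rhythmic was 0.0301% (AL) and 0.492% (TRF) in Bmal1LKO and 0.0402% and 7.26% in CryDKO. In ReverbLDKO AL it was 0.26 ± 0.13 (limma adjusted p = 1), where 0.0301% of genes were called.

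ReverbLDKO TRF was the mutant group in which Cry1 passed as rhythmic. Its amplitude was 0.57 ± 0.13, a 2.20-fold span, and its peak at ZT19.7 ± 0.845 h lay within 1 h of the WT peaks (limma adjusted p = 0.0123), where 4% of genes were called. Without ReverbLDKO TRF ZT6 the adjusted p was 0.139 and without ReverbLDKO TRF ZT21, the library at 29.6 FPKM, it was 0.149, both in limma. The call was also lost when only this group entered the limma fit (adjusted p = 0.153).

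The test of mutant against WT rhythm, on cosine and sine together, passed for Cry1 in all 6 comparisons, with differences of 0.88 to 1.40 and limma adjusted p of 8.82e-07 to 0.00629. Few of all tested genes passed this test, which had 1 mutant library at each time, and genes not called may still differ. The share called was 0.161% (AL) and 0.131% (TRF) in Bmal1LKO, 1.36% and 3.5% in CryDKO, and 0.151% and 1.48% in ReverbLDKO. Leaving out ReverbLDKO TRF ZT18 ended the call of that group (0.61, limma adjusted p = 0.0897), and calls were also lost when every library was scaled to the same sum of FPKM, in Bmal1LKO AL (limma adjusted p = 0.121), ReverbLDKO AL (0.114) and ReverbLDKO TRF (0.0539). With only the groups compared in the limma fit, Bmal1LKO AL (adjusted p = 0.110) and ReverbLDKO TRF (0.163) did not pass.

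For Cry2 no mutant group was called rhythmic, with amplitudes of 0.06 to 0.30 (limma adjusted p of 0.603 to 1). No mutant differed from WT in Cry2 rhythm either, with limma adjusted p of 0.412 to 0.892.

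FPKM is scaled per length, so the 2 genes can be set side by side in a library. In WT the balance between them crossed over within the day. At ZT8 Cry2 was the higher in all 4 libraries, with Cry1 at 0.30 to 0.61 of the Cry2 FPKM, and at ZT16 Cry1 was 3.78 to 11.4 times Cry2. The replicate 2 libraries of ZT16, with about 46 (AL) and 110 (TRF) Cry2 reads, gave 11.4 and 8.86 times. Replicate 1 gave 3.78 and 4.02 times. The log2 ratio of (Cry1 + 1) to (Cry2 + 1) ran from -1.31 to 2.80 in WT AL and from -0.93 to 2.64 in WT TRF, below 0 in 3 and 2 libraries. The value of 2.80 came from the shallowest library, WT AL ZT16 replicate 2. In the mutants it was above 0 in every library and covered a narrower range. The range was 1.66 to 2.25 in Bmal1LKO AL, 1.68 to 2.50 in Bmal1LKO TRF, 1.09 to 1.63 in CryDKO AL and 1.16 to 2.38 in CryDKO TRF. In ReverbLDKO it was 1.05 to 2.02 in AL and 0.77 to 2.62 in TRF, the widest of the mutant groups. The ratio carries the GC difference between the genes, and it was described with no test.

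**Figure D3:**
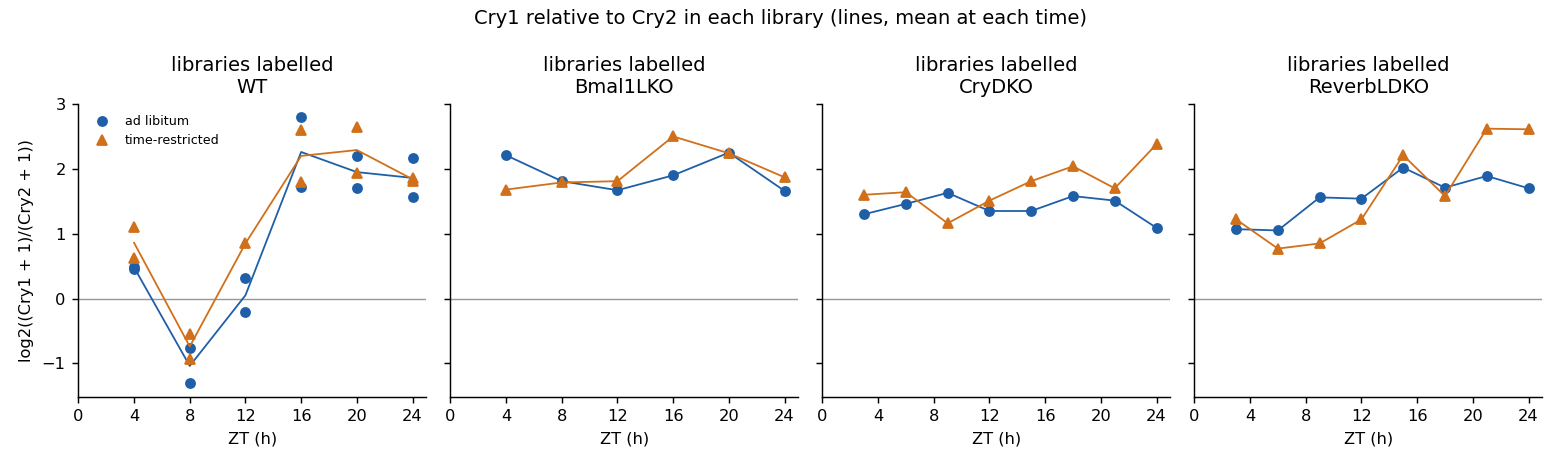
Log2 of (Cry1 + 1) over (Cry2 + 1), in FPKM, against ZT in hours for each library, with lines through the mean at each time; the grey line marks equal values. WT falls to -1.31 at its lowest at ZT8 and reaches 2.80 at ZT16, in the shallowest library, while no mutant library lies below 0.77.

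Other clock genes were described by lists of activators, repressors and output factors. Among the activators (Arntl, Clock, Npas2 and Rora), 3 of 4 were rhythmic in WT AL and 3 of 4 in WT TRF. Among the repressors (Per1, Per2, Per3, Nr1d1, Nr1d2, Ciart, Bhlhe40 and Bhlhe41, the last too low to test), 7 of 7 tested were rhythmic in WT AL and 5 of 7 in WT TRF. Of the output factors Dbp, Tef, Hlf and Nfil3, 4 and 3 were. Over all tested genes the rhythmic share was 29.7% in WT AL and 20% in WT TRF. In Bmal1LKO AL, where that share was 0.0301%, Per1 was the 1 rhythmic gene of these lists (amplitude 1.16, limma adjusted p = 0.0306), and it did not pass with libraries scaled to the same sum. None passed in Bmal1LKO TRF (0.492% of all genes). In CryDKO none of these 15 tested genes was rhythmic in AL (0.0402% of all genes) or TRF (7.26%), and 0 of 15 were in ReverbLDKO AL (0.0301%). In ReverbLDKO TRF, the mutant group in which Cry1 was called rhythmic, 5 of 7 repressors and 2 of 4 output factors were rhythmic against 4% of all genes. The 5 include Nr1d1 (amplitude 1.745), a gene targeted in that mutant. Per2 was also among them, with an amplitude of 0.97 and a peak at ZT18.1, where its WT peaks were at ZT13.45 (AL) and ZT14.52 (TRF). Summed over all exons, the targeted genes do not check the other deletions either. Arntl read 2.76 to 7.09 FPKM in Bmal1LKO AL and 2.00 to 4.34 in TRF, within the WT ranges of 0.552 to 11.7 and 0.416 to 12.6 FPKM. Its level differed from WT by -0.22 in AL (limma adjusted p = 0.414) and fell by 0.53 in TRF (limma adjusted p = 0.0290), a call lost with GC and length correction (-0.31, limma adjusted p = 0.230). Nr1d1 read 10.6 to 66.4 FPKM in ReverbLDKO AL, against 0.165 to 33.3 FPKM in WT AL (median 3.16). Nr1d2 read 10.7 to 20.6 FPKM there, against 1.7 to 26.6 FPKM in WT AL (median 8.28).

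In libraries labelled CryDKO, clock repressor genes, which BMAL1 and CLOCK switch on, had a fitted 24 h level above WT. This held for all 7 tested repressors at both feedings, with a median difference of 1.25 in AL and 1.26 in TRF. The median over all tested genes was -0.05 and 0.03. Over all 9958 genes, 2459 in AL and 3352 in TRF were called higher. With GC and length correction 7 of 7 were still called, with medians of 1.08 and 1.03. In AL the highest CryDKO library was below the highest WT library for Per1 (10.2 against 11.2 FPKM) and Per2 (12.4 against 12.8). The same held for Per3 (4.61 against 4.68 FPKM), Nr1d1 (15.4 against 33.3) and Nr1d2 (25.7 against 26.6), and not for Ciart or Bhlhe40. In TRF it held only for Nr1d1 (14.3 against 20.4 FPKM) and Nr1d2 (26.6 against 39.1). Ciart, a repressor of BMAL1 and CLOCK, rose by 2.03 ± 0.19 in AL and 2.34 ± 0.20 in TRF, from a WT AL range of 0.04 to 9.85 FPKM to 7.50 to 13.1 FPKM in CryDKO AL. Per3 rose by 1.26 ± 0.14 at both feedings on the log2 scale. Nr1d1, which encodes REV-ERB alpha, rose by 1.43 ± 0.20 and 1.68 ± 0.20. Bhlhe41, not tested, was at 1.04 to 1.72 FPKM in CryDKO AL and 0.0266 to 0.909 FPKM in WT AL. Per1 rose by 0.66 ± 0.16 in AL and 2.01 ± 0.17 in TRF, and the TRF value was 1.08 with GC and length correction.

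Output factors behaved in the same direction except for Nfil3. Dbp, a D-box activator, rose by 2.43 ± 0.31 in AL and 2.88 ± 0.32 in TRF. It read 27.1 to 40.3 FPKM in CryDKO AL, within the WT AL range of 0.542 to 56.1 FPKM (median 2.91). Tef rose by 1.15 and 1.17 and Hlf by 1.16 and 0.70. Nfil3, a repressor at D-boxes, fell by 0.83 in AL (limma adjusted p = 0.000619), a difference of -0.47 with GC and length correction, and differed by -0.41 in TRF (limma adjusted p = 0.0807), which passed with that correction (-0.50, limma adjusted p = 0.0310). Of the activators, Rora rose by 0.83 ± 0.16 in AL (limma adjusted p = 3.04e-05), or by 0.38 with GC and length correction, and differed by 0.19 ± 0.16 in TRF (limma adjusted p = 0.313), which passed with it (0.36, limma adjusted p = 0.00414). Clock differed by 0.06 ± 0.10 in AL (limma adjusted p = 0.580), which became -0.38 with that correction (limma adjusted p = 6.82e-05), and fell by 0.41 ± 0.10 in TRF (limma adjusted p = 0.000449), a corrected difference of -0.24. Arntl differed by 0.08 in both feedings (limma adjusted p = 0.701 and 0.723). Npas2 was listed at 0 in all 16 CryDKO libraries, 1 of 3 genes at 0 in all of them with a mean of at least 1 FPKM elsewhere, against a WT median of 0.415 FPKM. Its difference is therefore not read as a fold.

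**Figure D4:**
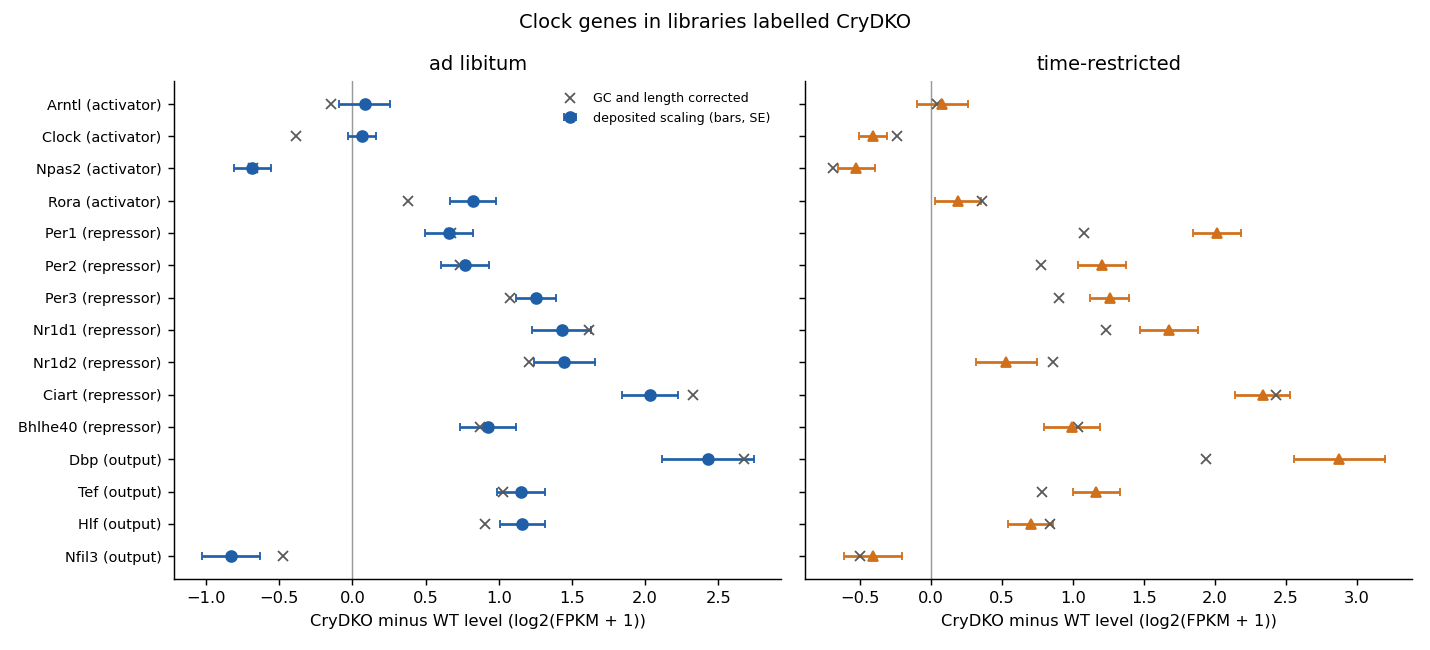
Difference in 24 h level, CryDKO minus WT, on the log2(FPKM + 1) scale for 15 tested clock genes, in AL (left) and TRF (right); bars are standard errors and crosses are the values with GC and length correction. The 7 repressors lie to the right of 0 in both panels, from 0.53 (Nr1d2, TRF, 0.86 with the correction) to 2.34 (Ciart, TRF), and Nfil3 and Npas2 lie to the left.

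Genes of cryptochrome turnover and its kinases were called in both directions. Of 16 tested of 20 listed, 9 were higher and 2 lower than WT in CryDKO AL, and 6 were higher and 3 lower in TRF, with list medians of 0.19 and 0.07. In AL these became 7 higher and 4 lower with GC and length correction (median 0.12) and 11 higher and 1 lower with libraries scaled to the same sum (median 0.43), and in TRF the medians became 0.14 and 0.15. Usp2, which encodes a deubiquitinase, rose by 1.37 ± 0.23 and 1.64 ± 0.23. These 11 and 9 called genes of 16 are read against 55.4% and 61.5% of all genes and are no result about the list. Of 10 genes of glucagon and glucocorticoid action, 2 were higher and 5 lower in AL and 3 higher and 2 lower in TRF, again read against 55.4% and 61.5% of all genes. The AL balance turned to 4 higher and 1 lower with libraries scaled to the same sum, and was 2 and 3 with GC and length correction. The glucocorticoid receptor gene Nr3c1 rose by 0.89 in AL (limma adjusted p = 1.17e-08), or by 0.55 with that correction, and differed by 0.24 in TRF (limma adjusted p = 0.0663), a difference that passed with the correction (0.46, limma adjusted p = 1.31e-07). Pck1, which encodes the gluconeogenic enzyme PEPCK, fell by 0.92 in AL (limma adjusted p = 0.00317) and differed by -0.39 in TRF (limma adjusted p = 0.212).

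Among the genes most like Cry1 in WT, by Pearson r over the 12 means among 5136 candidates averaging 5 FPKM or more, were Hsdl2 (r = 0.947), Ephx2 (0.931), Cxcl12 (0.930), Setd8 (0.918) and Sult1a1 (0.910). Ephx2 encodes an epoxide hydrolase, Cxcl12 a chemokine and Sult1a1 a sulfotransferase. The least alike were Nr1d1 (r = -0.946), Pmm2 (-0.922) and Abcg8 (-0.903), so the REV-ERB alpha gene ran opposite to Cry1 in WT. In the mutants Nr1d1 stood at 0.387 to 2.98 FPKM in Bmal1LKO AL, where Cry1 was highest, and at 8.41 to 15.4 FPKM in CryDKO AL. It stood at 10.6 to 66.4 FPKM in ReverbLDKO AL, where Cry1 too was above WT. Nr1d1 is itself a targeted gene there, and FPKM over all exons does not show how much of its transcript was intact. Hsdl2 stood at 17.8 to 35.3 FPKM in Bmal1LKO AL, at 29.2 to 49.1 FPKM in CryDKO AL and at 26.0 to 39.9 FPKM in ReverbLDKO AL, against 17.0 to 38.9 FPKM in WT AL. Over all 67 libraries the r of Hsdl2 with Cry1 was 0.151 and that of Nr1d1 was -0.385.

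Among the genes most like Cry2 were Gusb (r = 0.916), Marveld1 (0.915), Vdac1 (0.912), Pcsk6 (0.895) and Bhlhe40 (0.880). Bhlhe40 encodes a clock repressor, Gusb a lysosomal glucuronidase and Vdac1 a mitochondrial channel. The least alike were Ifi47 (r = -0.905), Plrg1 (-0.891) and Fgl1 (-0.886). These correlations are across means that share libraries, depth and GC bias, and with 12 points they are given as a description.

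**Figure D5:**
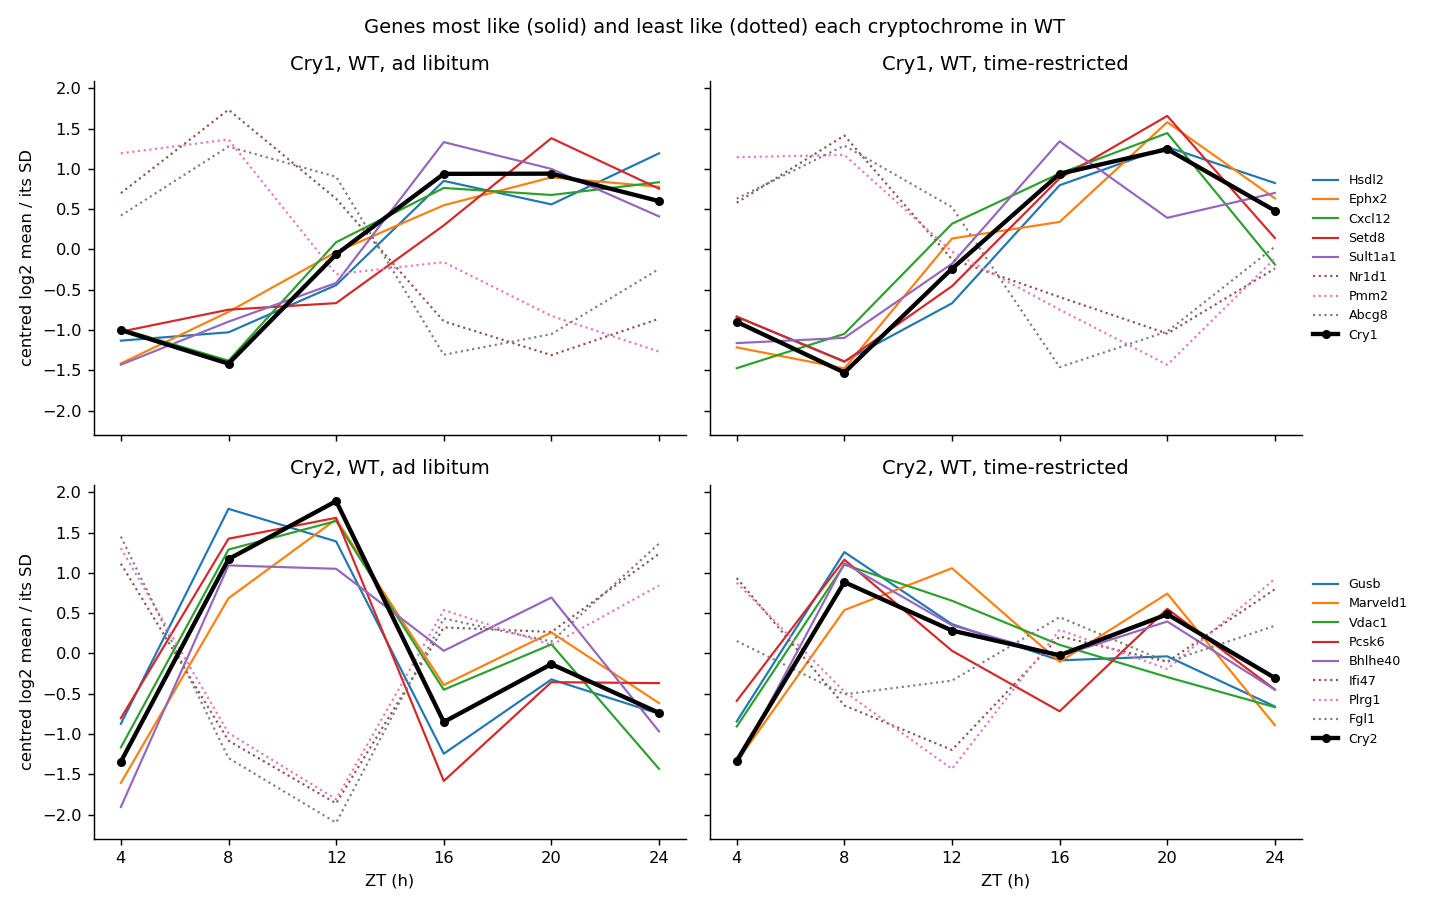
Means of log2(FPKM + 1) at each ZT in WT, centred within feeding and divided by the SD over the 12 means, for Cry1 (upper row) and Cry2 (lower row, black) with 5 of their most alike genes (solid) and 3 least alike (dotted), in AL (left) and TRF (right). Hsdl2 follows Cry1 with r = 0.947 and Nr1d1 runs opposite with r = -0.946, while the Cry2 panel in AL rises to ZT12 and falls at ZT16.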

How the data were processed

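The authors deposited FPKM values in 1 table of 67 libraries, and 0 of its sample columns were left unused. Per the labels' protocols, RNA was extracted with an RNeasy Mini kit and the library kit was TruSeq stranded mRNA. Per the submitters' processing notes, STAR, featureCounts, DESeq2 and GRCm38 were used, with no role or version given. The strand setting is not given in the sources used here. Deposited FPKM summed to 386198 to 1097495 per library.

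FPKM values are not counts, so no count test was used. Values were analysed as log2(FPKM + 1), and a fold is on that scale, which understates the change of low genes. One limma fit (3.58.1, R 4.3.3) of the 9958 genes whose mean reached 1 FPKM gave each of 8 groups a level, a cosine and a sine of 24 h, with 43 residual degrees of freedom and Benjamini-Hochberg adjustment over all genes (threshold 0.05). Groups with 1 library per time share its estimate of the spread. The fit was tested on simulated data. GC and length correction removed each library's spline trend over 9581 genes with values from the GENCODE annotation of GRCm38. At the estimated depths 80.8 to 88.0% of low values were within 0.1 of a whole read. Dates in place of symbols (27 rows) and repeated symbols (4 rows) were not matched to annotation.

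The members, lists and tests were chosen with earlier results of these data known. Named genes were the members, list genes, and the 6 most and 3 least alike by Pearson r over the 12 WT means, without predicted or unnamed genes. Alternatives were the pseudocount (0.1), no filter on low values, 2 scalings, GC and length correction, only the groups compared, other time terms, the replicate number as a block, and leaving out each library. A few genes of these lists and rankings are not reported here, and the list counts are without them.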

Additional observations from a re-analysis of the deposited data

How the results depend on the processing

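Of 66 tested results on Cry1 and Cry2, no call changed with a pseudocount of 0.1 and none of the 10 tested with times as categories changed; no setting reversed a called direction. With no filter on low values, Cry2 in Bmal1LKO AL against WT no longer passed (0.4465), nor with median-of-ratios scaling (0.4171) or no time terms (0.4465), where Cry1 in CryDKO TRF (0.3687) and Cry1 in CryDKO against ReverbLDKO in AL (-0.8007) and TRF (-0.5522) were lost too. With the same sum of FPKM in each library, the Cry1 rhythm in ReverbLDKO TRF (0.5133) and the Cry1 rhythm differences from WT in Bmal1LKO AL (1.065), ReverbLDKO AL (0.9548) and ReverbLDKO TRF (0.8771) were lost, and Cry1 in CryDKO AL (0.4223) and Cry2 in ReverbLDKO AL (0.5993) passed. With GC and length correction, the Cry2 rhythm in WT TRF (0.448) and the differences from WT of Cry1 in CryDKO AL (0.284) and Cry2 in CryDKO AL (-0.3549), CryDKO TRF (-0.7068) and ReverbLDKO AL (0.2873) passed, while Cry2 in Bmal1LKO TRF (0.2688) and ReverbLDKO TRF (0.05928) were lost. With only the groups compared, 5 calls were lost: the rhythm of Cry2 in WT AL (0.5171) and Cry1 in ReverbLDKO TRF (0.57), Cry2 in Bmal1LKO AL (0.4465), and the Cry1 rhythm differences in Bmal1LKO AL (1.311) and ReverbLDKO TRF (0.877). Without WT ZT16 replicate 2 of both feedings, chosen after seeing the data, the Cry2 rhythm in WT TRF (0.4288), the Cry2 feeding difference in WT (-0.3133) and Cry2 in CryDKO AL (-0.4366) passed. The cause of these changes was not tested.

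Same-numbered WT libraries of the 2 feedings deviated together at ZT4, ZT8, ZT16 and ZT20 (correlations of 0.398, 0.626, 0.609 and 0.544) and not at ZT24 (-0.287), so the numbers were not taken to pair them. With the replicate block, Cry2 in Bmal1LKO AL (0.2754), Bmal1LKO TRF (0.3273) and ReverbLDKO TRF (0.3261) no longer passed and Cry2 in CryDKO AL (-0.4762) did.

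Leaving out 1 library, the ranges of results with a changed call were 0.4274 to 0.6512 for the Cry2 rhythm in WT AL, 0.465 to 0.8346 for the Cry1 rhythm in ReverbLDKO TRF and 0.6064 to 0.9927 for its difference from WT. For Cry2 they were -0.4134 to -0.1818 for feeding in WT, 0.315 to 0.5471 in Bmal1LKO AL, 0.4173 to 0.5961 in Bmal1LKO TRF, -0.4366 to -0.231 in CryDKO AL (passing without WT AL ZT4 replicate 2 or ZT16 replicate 2) and 0.206 to 0.3835 in ReverbLDKO AL. The last passed without WT AL ZT12 replicate 1 or 2, ZT20 replicate 1 or 2, or ZT24 replicate 2.

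Of 87 alternatives tried for 35 list counts, ratio medians and counts of alike genes, 5 moved a count by over 1.5 times or a median by more than the SD over libraries, and smaller shifts of 1 or 2 genes are not listed. The median log2 ratio in CryDKO AL was 1.635 with a pseudocount of 0.1, and 1 output factor was rhythmic in CryDKO TRF with GC and length correction and without the ZT16 libraries. By Spearman rho over the 12 means, 2 of the 6 genes most like Cry1 and 3 of the 6 most like Cry2 were again among the 6 highest.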
